A study of Saccharomyces cerevisiae with 5 samples.

Results

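The cytosolic ribosomal protein genes of Saccharomyces cerevisiae are described here across 3 strain comparisons under salt. A gene was a member when its probe's systematic name belonged to a gene with a symbol of RPL or RPS and a digit, or to RPP0, RPP1A, RPP1B, RPP2A or RPP2B. Mitochondrial ribosomal proteins were left out. The rule found 137 members among 6388 gene probes: 76 of the large subunit, 56 of the small subunit and 5 of the stalk. Of these, 114 form 57 pairs of paralogues whose symbols differ only in a final A or B, and 18 outside the stalk have no such partner. Every culture had been kept in 0.5 mol/L NaCl for 45 min. The strain bdf1Δ, which lacks BDF1, was set against the laboratory strain W303 on 1 array with bdf1Δ in Cy5. On 2 arrays with exchanged dyes, bdf1Δ+HAL2, a bdf1Δ strain that carries extra HAL2, was set against bdf1Δ, and on 2 more the double mutant bdf1Δhda1Δ was set against bdf1Δ. The sources used here do not say how HAL2 was introduced or how many clones were grown.

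Each ribosome is built from a large subunit, which joins amino acids, and a small subunit, which reads the messenger RNA. Yeast keeps most ribosomal proteins as a pair of near-identical genes, and these genes are among the most strongly transcribed of the genome. Their transcription is tied to growth through the TOR pathway and falls, as background knowledge, when cells meet salt or other stress. Bdf1 binds acetylated histones through bromodomains and is a partner of TFIID in transcription. Hal2 is a salt-sensitive phosphatase, and Hda1 is a histone deacetylase.

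Unless stated otherwise, a value is the log2 ratio of the first-named strain to the other after global loess, a fit over signal strength that sets the typical gene to 0. A gene was called higher or lower when every array of its comparison put it past 2-fold, all in 1 direction. Median centring, given beside loess in places, only subtracts the median ratio of the array. The 2 arrays of a pair repeat the same samples, so each comparison rests on 1 biological replicate, and no p-value was computed. The SD is between the 2 arrays of a pair or, on the single array, between a gene's repeat spots, and covers technical variation only. BDF1 read 10 in bdf1Δ and 510 in W303 as net intensity, spot minus local background, with a log2 ratio of −0.80 ± 0.20. MET22, the listed name of HAL2, is not deleted and read much the same there, at 15 and 580 with −0.82 ± 0.18, so these values do not show the deletion. HAL2 stood at 3.73 ± 0.15 (SD, n = 2 arrays) in bdf1Δ+HAL2. HDA1 was above background in neither strain of the bdf1Δhda1Δ pair on array 1, and on array 2 in bdf1Δ but not in bdf1Δhda1Δ, at 187 and −23. Measured members numbered 132, 136 and 136, among 3688, 4266 and 2074 measured genes. RPL11A, RPL41B, RPS0A, RPS20 and RPS23B were not measured on the bdf1Δ versus W303 array, and RPS0A was not measured on the bdf1Δhda1Δ pair. No member spot was saturated on any array.

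The bdf1Δ versus W303 array stands apart from the other 4, and the members carry a direct measure of how. The slide holds 144 control spots named RPL32, with 3 in each of its 48 printing blocks. These spots share a name and so, by their label, a target. Before normalization their log2 ratios on this slide ran from −5.32 to 1.62 with an SD of 1.91. On the other 4 arrays the same spots had an SD between 0.09 and 0.14. Global loess left an SD of 1.63 on the bdf1Δ versus W303 array, and print-tip loess, which fits each block on its own, left 1.17. The slide also holds 144 control spots named ACT1, a gene outside the members, of which 139 were found on this array. Their median there was −2.25 by global loess and −1.01 by print-tip loess, against −1.25 and −0.08 for the RPL32 spots. Before normalization the RPL32 spots lay above the ACT1 spots in 46 of 48 blocks. The cause was not tested. The block medians of all other genes ran from −3.02 to −0.07 there, and 49.7% of the variance of the ratios lay between blocks, against 3.41% to 10.5% on the other arrays. Print-tip values are therefore given beside values from this array, and the part of position in any of them was not tested beyond these values.

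On the bdf1Δ versus W303 array the ribosomal protein genes lay below the typical gene, with a median log2 ratio of −1.03 over 132 members against −0.00 over all 3688 measured genes. Of the members, 68 (51.5%) were called lower, where 18.4% of all measured genes were, and 4 (3.03%) were called higher, where 15.9% were. A call used the measured ratio, also for members and other genes not well above background in bdf1Δ. After print-tip loess the members' median was −0.20, with 14 (10.6%) called lower against 6.18% of all measured genes and 3 called higher against 5.94%. Median centring gave −0.50, with 48 lower against 17% and 22 higher against 20.7%. The median lay below 0 under each of the 3 normalizations, with different sizes. Members spread from −4.03 to 1.84 around their median. The median net intensity of the member spots was 378.5 in bdf1Δ and 2107 in W303. In bdf1Δ 76.9% of member spots but 36.9% of all gene spots were above background, and in W303 99.0% and 91.2%. The members and the typical gene were thus not equally well measured in bdf1Δ. Members were bright, with a median brightness percentile of 85.2. Among genes past percentile 90, 44.6% of 56 members and 24.3% of 313 other genes were called lower by global loess. The shares were 17.9% and 14.4% by print-tip loess, and 19.6% and 8.95% by median centring. In the same order the medians were −0.61 and −0.02, −0.38 and −0.06, and 0.31 and 0.88. The part of brightness in these calls was not tested.

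The members' unnormalized ratios followed the part of the slide they were printed on. Across 132 members in 45 blocks, Pearson's r between a member's ratio and the median of the other genes in its block was 0.85. Members of a block share their print position, their hybridisation and their local background. For the RPL32 control spots the same r over 48 blocks was 0.86. Set against the other genes of their own block, the members had a median of −0.49, and 34 of 132 (25.8%) lay more than 1 below it, where 10.2% of all measured genes did. More than 1 above it lay 3.03% of the members and 8.05% of all measured genes. These figures were added after the data were seen.

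**Figure D1:**
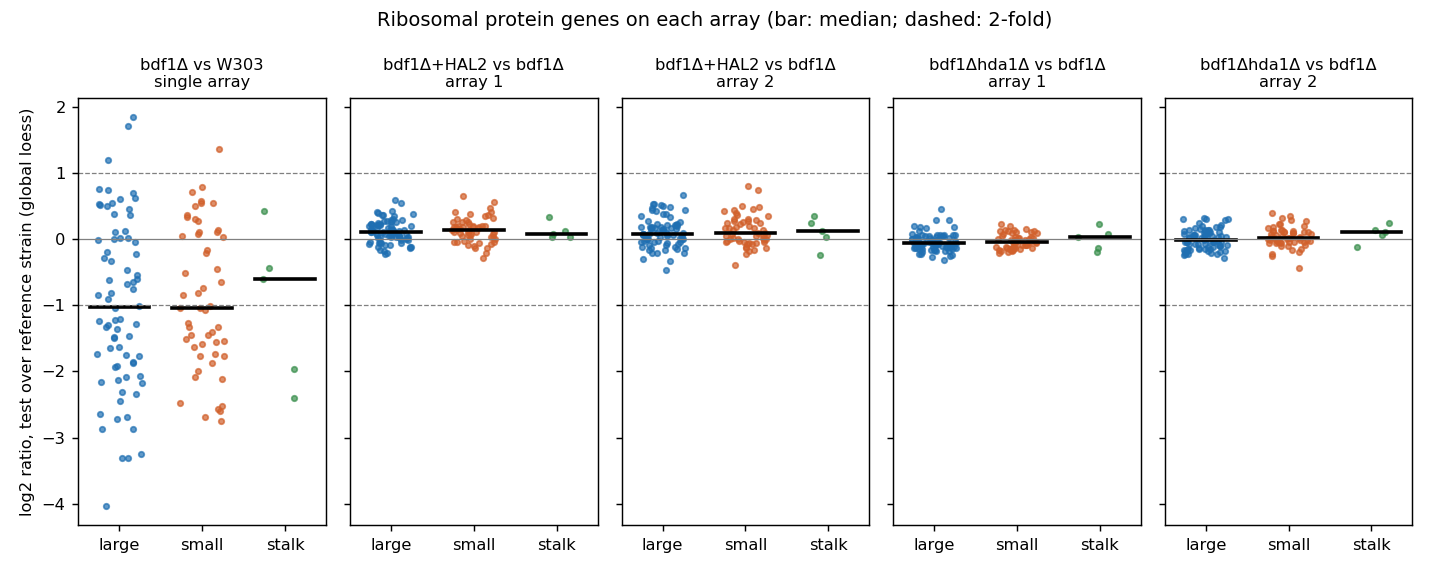
Log2 ratios of the ribosomal protein genes on each of the 5 arrays after global loess, as points by subunit, with bars at the medians and dashed lines at 2-fold. On the bdf1Δ versus W303 array the points run from −4.03 to 1.84, while on the other 4 arrays none passes 2-fold.

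**Figure D2:**
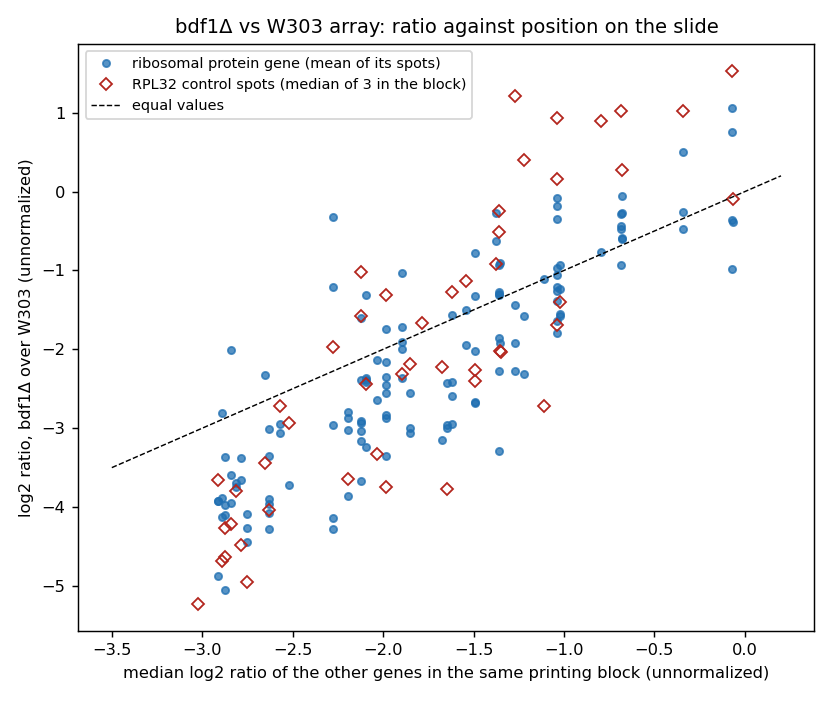
Unnormalized log2 ratio of bdf1Δ over W303 for each ribosomal protein gene (circles) and for the RPL32 control spots of each block (diamonds), against the median of the other genes in the same printing block. Both sets of points rise along the block medians, which run from −3.02 to −0.07, and most circles lie below the dashed line of equal values.

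The large subunit had a median of −1.03 with 38 of 74 members (51.4%) lower. The small subunit had a median of −1.04 with 28 of 53 (52.8%) lower, where 18.4% of all measured genes were. After print-tip loess the medians were −0.21 and −0.19, with 8 (10.8%) and 5 (9.43%) members lower, against 6.18% of all measured genes. The difference of the medians, large minus small, was 0.01 by global loess and −0.02 by print-tip loess. With 1 array this difference has no measure of its error.

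Among the large subunit proteins the lowest ratio was that of RPL7B, at −4.03 ± 0.04 (SD of repeat spots). Its net intensity was 213.5 in bdf1Δ and 9072 in W303. Print-tip loess gave −0.24, within 2-fold. RPL3, which lies close to the site where peptide bonds form, read 55 in bdf1Δ and 3417.5 in W303. No bdf1Δ spot of RPL3 was above background, so the ratio of −3.30 ± 0.20 is given as at least 1.95-fold lower (print-tip value −0.97). In all, 22 members were not well above background in bdf1Δ on this array. RPL31A was among them, with a measured ratio of −2.88 ± 0.08 that is given as at least 1.13-fold lower, and RPL4B, which was above background, stood at −2.87 ± 0.23. Both were at −0.17 by print-tip loess. RPL3 and RPL31A count as called lower by global loess, since a call used the measured ratio, although their at-least folds are below 2.

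RPL20A and RPL17B differed from these in keeping their ratios. RPL20A read 329 in bdf1Δ and 7410 in W303, with a log2 ratio of −3.30 ± 0.05 and a print-tip value of −2.51 ± 0.10 over the 2 spots used. RPL17B, whose protein lines the tunnel through which the new peptide leaves, read 520.5 and 9049.5, with −3.24 ± 0.25 and −2.62 ± 0.22. Its copy RPL17A read 538 and 4074, with −1.92 ± 0.18 and −1.95 ± 0.28. Both RPL17 copies were thus lower by each normalization. RPL20A and RPL17B were printed in block 35. RPL28 and RPS24A of the same block had ratios of 0.54 ± 1.03 and 0.14 ± 0.77, with print-tip values of 1.17 and 1.15. RPL19B, also of that block, was at −1.63 (print-tip −0.57). The repeat-spot SDs of RPL28 and RPS24A were well above the members' median of 0.27.

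By global loess and print-tip loess together, 11 members (8.33%) were called lower, where 3.55% of all measured genes were, and 0 were called higher, where 4.47% were (4.34% with median centring added, again 0 members). Adding median centring left 7 members (5.30%) against 2.41% of all measured genes. These 7 were RPL4A, RPL15B, RPL17A, RPL17B, RPL19A, RPL20A and RPP0, picked out by that rule after their values were seen. RPL15B stood at −2.17 ± 0.28 (print-tip −1.87), RPL19A at −1.93 ± 0.35 (−1.86) and RPL4A, a protein of the exit tunnel, at −2.08 ± 0.44 (−1.03). Of the other 4 of the 11, RPL38 and 3 small subunit genes, RPS2 had the lowest print-tip value, −1.73 ± 0.67, beside −1.76 ± 1.01 by global loess. The small subunit thus gave 3 of the 11.

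The 4 members called higher were all within 2-fold by print-tip loess and all called higher by median centring. RPL29 read 4564 in bdf1Δ and 2226 in W303, at 1.84 ± 0.10 (print-tip 0.17). RPL42B stood at 1.70 ± 0.08 (0.32), RPS28A at 1.36 ± 0.11 (0.15) and RPL31B at 1.20 ± 0.37 (−0.26). RPL29, RPL42B and RPL31B were all printed in block 5. Before normalization RPL29 lay 1.14 and RPL42B 0.83 above the median of the other genes there, and RPL31B 0.29 below it. RPS0B of the same block lay 0.91 below it, with a ratio of −0.17 and a print-tip value of −1.74. The next highest were RPS9B at 0.78 ± 0.43 (0.54) and RPL14B at 0.76 ± 0.28 (0.02), which were within 2-fold.

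Of the stalk, the arm of the large subunit that recruits elongation factors, 2 of 5 members were called lower on this array, where 18.4% of all measured genes were, and 1 of 5 by print-tip loess, where 6.18% were. RPP0, which anchors the stalk to the ribosome, was at −1.97 ± 1.11 (print-tip −1.27 ± 1.19). RPP1A was at −2.41 ± 0.07 but at −0.16 by print-tip loess. RPP1B, RPP2B and RPP2A were within 2-fold at −0.61 ± 0.21 (print-tip −0.37), −0.44 ± 0.55 (0.61) and 0.42 ± 0.06 (−0.07). The spots of RPP0 disagreed by more than 2-fold, so its value is the least certain of the 5.

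RPS31, RPL40A and RPL40B encode a ribosomal protein fused to ubiquitin and thereby supply much of the cell's ubiquitin. RPS31 read 157.5 in bdf1Δ and 3566.5 in W303, at −2.75 ± 0.08 (print-tip −0.02). RPL40A was at −2.31 ± 0.55 (−0.74) and RPL40B at −1.30 ± 0.10 (−0.09). All 3 were called lower by global loess and none by print-tip loess, where 18.4% and 6.18% of all measured genes were.

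The 2 copies of a pair often differed on the bdf1Δ versus W303 array. Of 53 pairs with both copies measured, 32 (60.4%) had ratios more than 2-fold apart, with a median size of the difference of 1.22 on the log2 scale. Print-tip loess left 10 (18.9%) and a median size of 0.47, and median centring gave 34 (64.2%). No share for pairs of other genes is at hand, so these shares cannot be called particular to the copies. The SD over genes was 1.08 for all measured genes and 1.19 for the members, and 0.65 for both by print-tip loess. In 14 pairs both copies were called lower, in 27 only a single copy was, and in 12 neither was. By print-tip loess the split was 2, 6 and 45, and by median centring 9, 22 and 22. The A copies had a median of −1.24 with 34 of 55 (61.8%) called lower. The B copies had a median of −0.51 with 21 of 55 (38.2%), where 18.4% of all measured genes were called lower. After print-tip loess the medians were −0.19 and −0.22, with 7 (12.7%) and 4 (7.27%) called lower. The latter share is near the 6.18% of all measured genes. Near-identical copies may also share signal on their probes, so values are uncertain as to the copy throughout.

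The copies' distance in ratio went with the distance between the blocks they were printed in. Across 53 pairs, the A-minus-B difference of unnormalized ratios and that of the block medians of other genes had an r of 0.88. These points share the slide, and the A and B blocks of a pair are fixed by the array's layout. Where the 2 block medians lay within 0.5 of each other, 6 of 18 pairs were more than 2-fold apart before normalization. Where they lay further apart, 28 of 35 were.

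The largest difference was in RPL7, a large subunit protein. RPL7A, in block 9, read 1554 in bdf1Δ and 1822.5 in W303, at 0.69, while RPL7B, in block 42, was at −4.03. The A-minus-B difference was 4.72 ± 0.36 by global loess and 0.22 ± 0.43 by print-tip loess. RPL31 stood at −4.07 ± 0.37 and 0.08 ± 0.38, and RPL43 stood at −2.63 ± 0.11 and −0.01 ± 0.07. RPL31A was not well above background in bdf1Δ, so the size of the RPL31 difference is uncertain. In RPS4, RPS4A read 223 in bdf1Δ and 3862 in W303, and RPS4B read 5709 and 5173. The RPS4 difference was −3.14 ± 0.61, and −1.08 ± 0.71 by print-tip loess.

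RPL15 and RPL20 kept large differences by both normalizations. RPL15A read 3531 in bdf1Δ and 4197 in W303, and RPL15B 363 and 3881. Their difference was 2.70 ± 0.37, and 2.27 ± 0.33 by print-tip loess. RPL20B read 2620.5 and 6490, well above RPL20A in bdf1Δ, for a difference of −2.69 ± 0.26, and −2.24 ± 0.28 by print-tip loess. In all, 7 pairs were more than 2-fold apart in the same direction by both, the other 5 being RPL9, RPL13, RPS4, RPS14 and RPS30. The smallest differences by global loess were those of RPL27, −0.03 ± 0.32 (print-tip −0.65), and RPL2, −0.05 ± 0.53 (0.17).

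Only RPL9 and RPS28 had both copies in the same block. RPL9A read 885 in bdf1Δ and 5255 in W303, and RPL9B read 290 and 636. Their difference was −1.93 ± 0.69, and −1.10 ± 1.09 by print-tip loess, the latter about the size of its repeat-spot SD. RPS28A read 2858.5 and 2015.5, and RPS28B 875 and 1216. The RPS28 difference was 0.66 ± 0.14, and 0.71 ± 0.15 by print-tip loess, with A above B. It was within 2-fold.

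**Figure D3:**
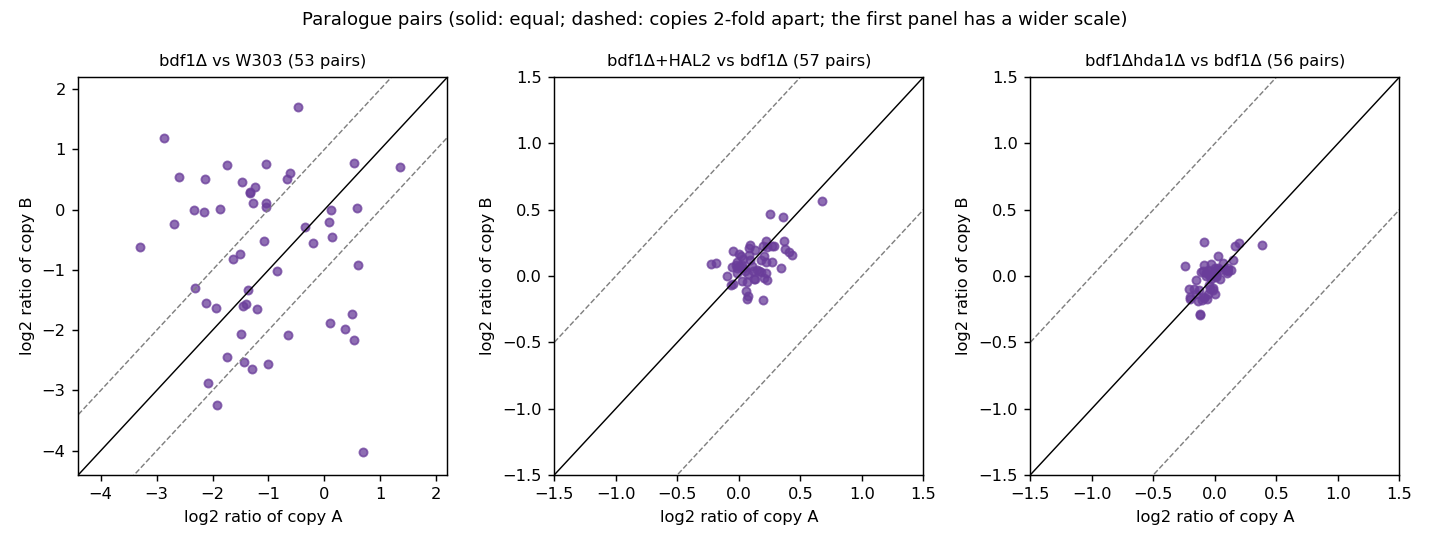
Log2 ratio of copy B against copy A for each pair in the 3 comparisons after global loess, with a solid line at equal ratios and dashed lines at a 2-fold difference. On the bdf1Δ versus W303 array 32 of 53 pairs lie outside the dashed lines, and in the other 2 comparisons, drawn on a narrower scale, none of 57 and 56 does.

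In bdf1Δ+HAL2 against bdf1Δ the ribosomal protein genes lay close to the typical gene. Their median was 0.10 over 136 members, at 0.11 on array 1 and 0.08 on array 2, against 0.00 over all 4266 measured genes. No member was called higher, where 0.445% of all measured genes were, and none was called lower, where 1.03% were. Members ran from −0.23 to 0.68, with 108 above 0 and 28 below. RPS6A and RPS6B, 1.47% of the members, lay beyond 0.5 from 0, where 11.4% of all measured genes did. Loess, print-tip loess and median centring gave medians of 0.10, 0.06 and 0.01, so the small positive shift moved with the scaling. Median centring gave 0.15 on array 1 and −0.15 on array 2, so its value near 0 averages dye-exchanged arrays of opposite sign.

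The highest members here were the RPS6 copies, whose protein is a long-known target of growth signalling kinases. RPS6A read 31640.5 in bdf1Δ+HAL2 and 19979.5 in bdf1Δ on array 1, and 22227 and 25631.5 on array 2. Its log2 ratios were 0.56 and 0.79, with a mean of 0.68 ± 0.17 (SD, n = 2 arrays), and 1.03 ± 0.41 by print-tip loess. RPS6B read 32505.5 and 23580.5 on array 1, and 19734 and 22342 on array 2, for 0.57 ± 0.24 and a print-tip value of 0.13. Median centring gave 0.16 for RPS6A and 0.08 for RPS6B. Next came RPL17B at 0.47 ± 0.28, RPL4B at 0.44 ± 0.04, RPL26A at 0.43 ± 0.15 and RPL40A at 0.41 ± 0.17. Their median-centred values were 0.01, 0.02, 0.18 and 0.05.

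The brightest members had the higher ratios under loess. The 12 members in the brightest 3% of measured genes had a median of 0.37, and the other 124 a median of 0.09. By print-tip loess these medians were 0.25 and 0.04, and by median centring −0.00 and 0.01. The members' unnormalized ratios also went with the block medians here, with r of 0.70 on array 1 and 0.67 on array 2 over 136 members. The division by brightness was made after the data were seen, and the part of brightness or position in the ratios was not tested.

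The lowest members were RPS9A, a protein near the path of the messenger RNA, at −0.23 ± 0.07, RPL36A at −0.19 ± 0.39, RPS14B at −0.18 ± 0.05, RPL13B at −0.17 ± 0.01, RPL14B at −0.15 ± 0.09 and RPL22B at −0.11 ± 0.02. RPS9A read 6164 and 6462.5 on array 1, and 3581 and 5043 on array 2, in bdf1Δ+HAL2 and bdf1Δ. By print-tip loess it was at 0.01. RPL36A had 0.09 on array 1 and −0.46 on array 2, so the arrays disagreed in sign. By print-tip loess the other 5 stood at −0.16 for RPL36A, −0.16 for RPS14B, −0.04 for RPL13B, −0.19 for RPL14B and 0.01 for RPL22B.

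The stalk genes ran from −0.06 to 0.34 in this comparison. RPP0 had 0.33 and 0.34 on the 2 arrays, RPP1A 0.07 and 0.24, RPP1B 0.03 and 0.13, RPP2B 0.03 on both, and RPP2A 0.12 and −0.24. RPP0 was the only stalk gene whose 2 arrays both passed 0.3, and its median-centred mean was 0.05. The ubiquitin fusions RPS31, RPL40A and RPL40B had means of 0.31 ± 0.16, 0.41 ± 0.17 and 0.18 ± 0.18. Large and small subunit medians were 0.09 and 0.12, a difference of −0.04.

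None of 57 pairs was called more than 2-fold apart in bdf1Δ+HAL2, and the median size of the difference was 0.11. By global loess no pair passed 0.5. By print-tip loess 3 did, named here after their values were seen: RPS6 at 0.90 ± 0.54, RPS4 at −0.70 ± 0.63 and RPS18 at −0.51 ± 0.12. Global loess gave these 0.11 ± 0.07, 0.10 ± 0.73 and 0.04 ± 0.20. The largest by global loess was that of RPS14, whose protein is known to limit its own supply by acting on RPS14B RNA. The RPS14 difference was 0.44 on array 1 and 0.31 on array 2, for 0.37 ± 0.09, and 0.23 ± 0.22 by print-tip loess. RPS9 stood at −0.32 ± 0.07 but at 0.26 ± 0.10 by print-tip loess, an opposite sign. RPL36, RPL26 and RPL34 stood at −0.29 ± 0.36, 0.27 ± 0.21 and 0.26 ± 0.11. The smallest were RPS16 and RPL9, both at 0.01 ± 0.05. The A copies had a median of 0.11 and the B copies one of 0.09.

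In bdf1Δhda1Δ against bdf1Δ the members lay at the typical gene, with a median of −0.00 over 136 members against 0.01 over all 2074 measured genes. None was called higher, where 1.06% of all measured genes were, and none lower, where 0.627% were. Members ran from −0.30 to 0.38, with 66 above 0 and 70 below, and none lay beyond 0.5, where 9.16% of all measured genes did. Median centring gave a median of −0.09, at 0.02 on array 1 and −0.20 on array 2.

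The highest member was RPL41A, which encodes a very short basic peptide of the large subunit. RPL41A read 11222.5 in bdf1Δhda1Δ and 7504 in bdf1Δ on array 1, and 9981 and 10234 on array 2. Its ratios were 0.45 and 0.31, with a mean of 0.38 ± 0.10 and 0.32 by print-tip loess. Its copy RPL41B followed the same sign on both arrays, at 0.29 and 0.18 (mean 0.23 ± 0.08, print-tip 0.14). RPS7B was at 0.25 ± 0.19, RPS17B at 0.25 ± 0.03, RPL10, which joins the large subunit late in its assembly, at 0.24 ± 0.08, and RPL21B at 0.23 ± 0.03. All 6 were positive on both arrays and by print-tip loess. They were picked as the highest means of these same arrays, so the shared sign is no separate support. Over all 136 members, 85 had the same sign on both arrays.

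The lowest were RPS23B, whose protein sits where codons are decoded, at −0.30 ± 0.20, RPL15B at −0.28 ± 0.06, RPL8A at −0.24 ± 0.01, RPL27A at −0.21 ± 0.08, RPS18A at −0.20 ± 0.04 and RPL34A at −0.20 ± 0.02. RPS23B read 1812 in bdf1Δhda1Δ and 1756 in bdf1Δ on array 1, and 1558.5 and 2437.5 on array 2. RPL15B read 5516 and 6344, then 6480.5 and 9552.5. All 6 were negative on both arrays and by print-tip loess, with sizes well under 2-fold. These too were picked by their means on the same arrays.

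Stalk genes ran from −0.16 to 0.18 here. RPP1B had 0.22 and 0.13 on the 2 arrays, RPP0 0.07 and 0.25, RPP1A 0.02 and 0.06, RPP2A −0.14 and 0.11, and RPP2B −0.20 and −0.12. RPP1B, at a mean of 0.18 ± 0.07, stood at −0.04 by print-tip loess. RPS31, RPL40B and RPL40A had means of 0.20 ± 0.13, 0.06 ± 0.14 and 0.00 ± 0.18. Large and small subunits had medians of −0.03 and 0.01.

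None of 56 pairs was more than 2-fold apart in bdf1Δhda1Δ, and the median size of the difference was 0.06. RPS7 had the largest, −0.34 ± 0.07, at −0.29 on array 1 and −0.39 on array 2, and −0.23 ± 0.06 by print-tip loess. RPL8 had −0.31 ± 0.07, at −0.36 and −0.26, and −0.26 ± 0.01 by print-tip loess. In each of these pairs the A copy lay lower on both arrays, and pairs were named only when the sign was the same on each array. RPS23, RPL7, RPL15 and RPL41 followed at 0.17 ± 0.23, −0.17 ± 0.09, 0.16 ± 0.08 and 0.15 ± 0.02. RPL42 and RPS28 were closest, at 0.00 ± 0.07 and 0.00 ± 0.14.

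The repeat arrays show how fine a difference can be read. In bdf1Δ+HAL2 the members' ratios on the 2 arrays had a Pearson's r of 0.10 across 136 members, against 0.75 across all 4266 measured genes. In bdf1Δhda1Δ the r was 0.44 across 136 members and 0.87 across 2074 genes. The points of each r share both RNA samples. The median SD of a member was 0.12 in the former comparison and 0.08 in the latter. Of the 136 members of each, 41 and 39 had a mean larger than 2 of their own SDs, as did 1623 of 4266 and 953 of 2074 among all measured genes. The RPL32 gene probe, at 0.36 on array 1 and −0.31 on array 2 of the bdf1Δ+HAL2 pair, shows how far the arrays could disagree. The RPL32 control spots of its block read 0.18 and −0.35.

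The members share bdf1Δ as test strain in the first comparison and as reference in the other 2, so their values are given side by side. The 7 members called lower by all 3 normalizations were picked for their low values in the first comparison. RPL17B was at −3.24 in bdf1Δ against W303, 0.47 in bdf1Δ+HAL2 and 0.00 in bdf1Δhda1Δ, all by global loess. RPL20A was at −3.30, 0.37 and −0.06, and RPL15B at −2.17, 0.16 and −0.28. RPL17A was at −1.92, 0.25 and −0.08, RPL19A at −1.93, 0.27 and −0.15, and RPL4A at −2.08, 0.36 and −0.02. RPP0 was at −1.97, 0.34 and 0.16. None of the 7 passed 2-fold in either of the latter comparisons. The bdf1Δ+HAL2 values moved with the scaling. For RPL17B, RPL20A, RPL15B, RPL17A, RPL19A and RPL4A, print-tip loess gave 0.32, 0.26, −0.02, −0.12, 0.04 and 0.24. Median centring gave 0.01, 0.02, 0.03, 0.03, −0.08 and −0.04.

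Genes that act with ribosomal proteins were read from 3 lists. Of 17 regulators of their transcription, 10 were measured on the bdf1Δ versus W303 array, with a median of 0.28 (print-tip 0.04). Called higher there were SCH9, a kinase downstream of TOR, at 1.27 ± 0.13 (0.32), and the histone deacetylase RPD3 at 1.12 ± 0.24 (0.18). These are 2 of 10, where 15.9% of all measured genes were called higher. No regulator was called lower, where 18.4% of all measured genes were. None was called by print-tip loess, where 5.94% of all measured genes were higher and 6.18% lower. In bdf1Δ+HAL2 15 were measured with a median of 0.15 and none called; the largest were REB1, a DNA-binding factor, at 0.54 ± 0.18 and TOD6, a repressor of ribosome synthesis genes, at −0.44 ± 0.08. In bdf1Δhda1Δ 9 were measured with a median of −0.07 and none called, led by DOT6, a relative of TOD6, at −0.38 ± 0.19 and the kinase TOR1 at −0.20 ± 0.06.

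Of 16 chaperones and assembly partners of ribosomal proteins, 15, 14 and 6 were measured in the 3 comparisons, with medians of −0.18, −0.14 and −0.05. The first was 0.03 by print-tip loess, an opposite sign. EGD2, a subunit of the complex that meets new peptides at the ribosome, was called lower in bdf1Δ against W303 at −1.64 ± 0.30 (print-tip −0.64). That is 1 of 15 (6.67%), where 18.4% of all measured genes were called lower. None was called elsewhere. RRB1, the chaperone of Rpl3, was at −0.34 ± 0.30 in bdf1Δ+HAL2 and −0.13 ± 0.07 in bdf1Δhda1Δ. ALB1, a partner of the large subunit on its way out of the nucleus, was at −0.33 on both bdf1Δ+HAL2 arrays, and EGD1 at −0.17 ± 0.12 in bdf1Δhda1Δ.

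Of 40 translation factors and ribosome-associated proteins, 37 were measured on the bdf1Δ versus W303 array, with a median of −0.62 (print-tip −0.19). There 15 (40.5%) were called lower, where 18.4% of all measured genes were, and 2 higher, where 15.9% were. By print-tip loess 3 were lower and 1 was higher, against 6.18% and 5.94% of all measured genes. The largest were SSB1 and SSB2, Hsp70 chaperones of the ribosome, at −3.96 ± 0.19 (0.19) and −2.74 ± 0.40 (−2.33), TMA19 at −3.64 ± 0.12 (−0.09), the cap-binding protein CDC33 at −2.93 ± 0.10 (−0.20), and the elongation factors YEF3 and EFT2 at −2.35 ± 0.01 (−0.31) and −2.32 ± 0.10 (−0.10). Of these 6, SSB2 alone was called by print-tip loess. In the other comparisons 39 and 35 were measured with medians of 0.04 and 0.02 and none called. ASC1, a protein of the small subunit head, was at 0.37 ± 0.13 and the elongation factor TEF2 at 0.36 ± 0.17 in bdf1Δ+HAL2, and SSB2 at 0.23 ± 0.11 and the poly(A)-binding protein PAB1 at −0.21 ± 0.00 in bdf1Δhda1Δ.

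**Figure D4:**
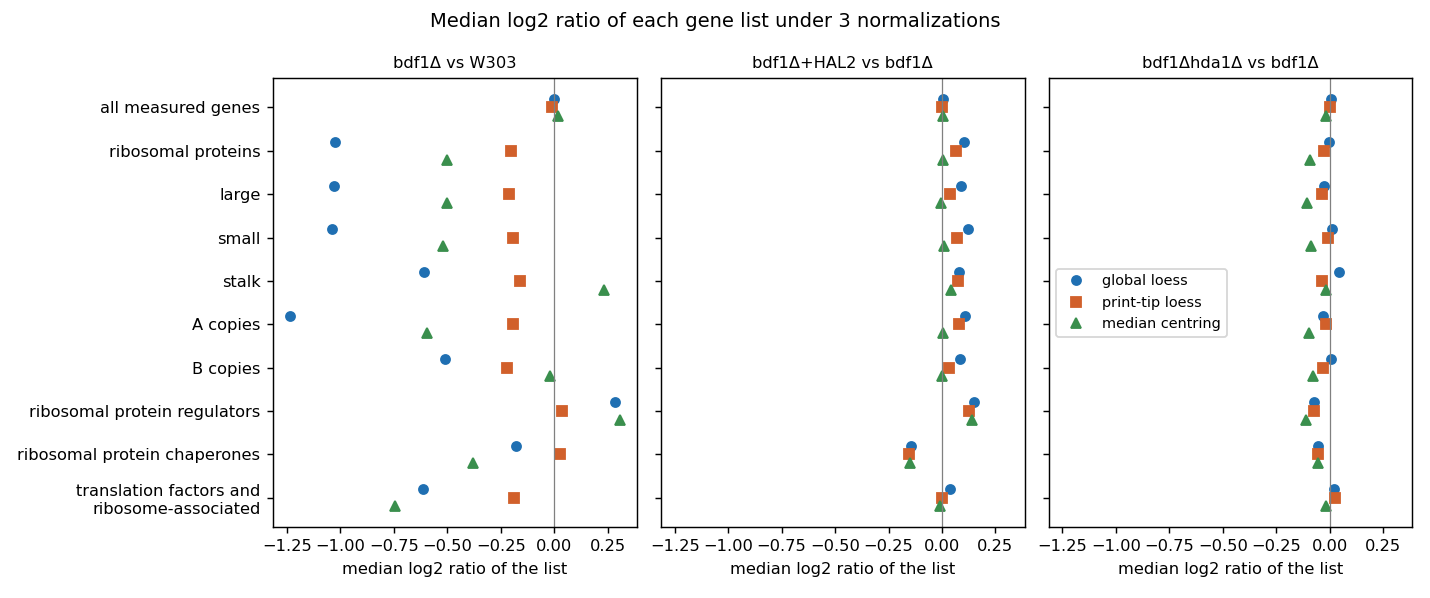
Median log2 ratio of all measured genes, the ribosomal protein genes, their subsets and the 3 related lists, under global loess, print-tip loess and median centring. In bdf1Δ versus W303 the ribosomal protein median moves from −1.03 to −0.20 and −0.50, and in the other comparisons it stays between −0.09 and 0.10.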

How the data were processed

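Total RNA of each strain was amplified and labelled with Cy5 or Cy3 and hybridised to oligonucleotide arrays, per the labels' protocols. Per the file headers, the deposited scanner files hold the spot and local background intensity in both channels. The authors' deposited table holds a linear ratio per probe. It was used as an alternative only, and its bdf1Δ versus W303 column is not centred (median ratio 0.195). Nothing in the sources used here states the image analysis settings.

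Intensities were corrected by normexp (offset 50) and normalized by global loess, with control spots and spots not found at weight 0 (limma 3.58.1, R 4.3.3). Ratios were turned to test over reference strain. Spots entered when found and when the signal of either dye lay more than 2 background SDs above the local background. To be measured, a gene needed 2 of its 3 spots on every array of the comparison. "At least" folds set the brighter strain against the higher of the dim spots' level and the lowest level above background, after loess and print-tip loess, and the smaller is given. Later steps used Python 3.11.15. Global loess, the gene values and the calls were tested on simulated ratios with small block effects. The simulation did not cover background correction, the other normalizations or the at-least folds. Nor did it cover block differences as wide as those of the bdf1Δ versus W303 array.

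The members were named through the R64 gene table, in which 5849 of the 6388 probes had their locus tag. No sequence or coordinate was used here. The members, the lists and the alternatives were chosen with earlier results of these data known. Named were the stalk and ubiquitin fusion genes, the 6 highest and 6 lowest members, the 6 pairs furthest apart with the same sign on each array and the 2 closest, and per list up to 6 called genes or else the 2 largest. Some items that the rule names are not reported here. Precision is limited by the number of arrays.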

Additional observations from a re-analysis of the deposited data

How the results depend on the processing

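No paired analysis was possible because each comparison has 1 biological replicate and no result comes from a test. With 1 array, the bdf1Δ versus W303 values also have no repeat hybridisation. Under all of the other settings, 0 members were called in bdf1Δ+HAL2 or bdf1Δhda1Δ and 0 pairs were more than 2-fold apart. Single arrays were run by global loess only, also with 0. By print-tip loess, array 2 of bdf1Δ+HAL2 alone has the RPS4 and RPS6 copies at −1.14 and 1.28 apart. In bdf1Δ versus W303 the members' median of −1.03 was −0.20 by print-tip loess, −0.50 by median centring, −0.34 by scaling between arrays, −0.75 with both channels above background, −2.44 in the authors' deposited ratio and −0.49 relative to the printing block, an alternative chosen after seeing the data. The 68 members lower became 14 by print-tip loess, 4 by scaling, 103 in the authors' deposited ratio and 34 relative to the block. Of all measured genes, 6.18%, 0.759%, 78.0% and 10.2% were lower under these settings. In the authors' deposited ratio the median of all measured genes was −2.37, so the members there lay near the typical gene. With both channels above background the median of the 2117 measured genes was 0.42, so the members' −0.75 was not nearer the typical gene. The 4 higher became 22 by median centring, 0 by scaling, 8 without the filter on spots and 1 in the authors' deposited ratio. Of all measured genes, 20.7%, 0.0542%, 24.5% and 0.842% were higher under these settings. The 32 pairs became 10 by print-tip loess, 3 by scaling, 19 with both channels above background and 20 relative to the block. RPL31B turned from 1.20 to −0.26 by print-tip loess, −0.94 in the authors' deposited ratio and −0.29 relative to the block. The RPL31 difference, in which RPL31A was not well above background in bdf1Δ, turned from −4.07 to 0.083 by print-tip loess. The cause was not tested. In bdf1Δ+HAL2 the median of 0.10 was 0.064 by print-tip loess, 0.0062 by median centring, 0.15 with member spots left out of the loess fit and 0.078 in the authors' deposited ratio. On single arrays it was 0.082 to 0.11. The large minus small difference of −0.035 was −0.012 by median centring, and −0.033 to −0.0051 on single arrays. In bdf1Δhda1Δ the median of −0.00 was −0.094 by median centring and −0.045 to 0.015 on single arrays. The large minus small difference of −0.037 was −0.019 by median centring, −0.058 by scaling, and −0.038 to −0.016 on single arrays.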
